A study of Mus musculus with 24 samples.

Results

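The proteasome and immunoproteasome subunit genes were followed in mouse hepatocytes across age and diet. Members were the genes of the count table whose symbol begins with Psma, Psmb, Psmc, Psmd, Psme or Psmg and a digit, plus Psmf1. Of 54 rows that matched, 4 with pseudogene names and 3 with a mean under 1 CPM (counts scaled to library size) were dropped, which left 47 members of 55421 genes. The least abundant member kept was Psme2b at a mean of 1.26 CPM, and the most abundant gene dropped for its level was Psma8 at 0.951 CPM. All 47 members passed the filter on low counts and were among the 13583 genes tested. Adjusted p-values below are Benjamini-Hochberg values over these genes from the quasi-likelihood F test of edgeR, and a gene with one under 0.05 is called. The interferon-inducible side held 5 members, Psmb8, Psmb9, Psmb10, Psme1 and Psme2, and the other 42 were the constitutive subunits, the remaining activators, the assembly chaperones and the inhibitor Psmf1.

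Hepatocytes, the parenchymal cells of the liver, were released by perfusing the liver of each of 24 male mice with collagenase and enriched on a Percoll gradient, and their polyA RNA was sequenced. There were 6 mice in each of 4 groups, young and old mice on normal diet (young ND and old ND) and on high-fat diet (young HFD and old HFD). The sample labels give ages of 6 and 24 months and 9 weeks on the diet, in which fat supplied 60% of the energy of HFD. The labels name a chow as ND and list young mice as C57BL/6N and old mice as C57BL/6J, which means that the effects of age and of substrain cannot be told apart here. The text of the study gives other ages, no substrain and a defined control diet in place of chow, so the exact ages and the ND are uncertain. Libraries came in 2 batches of 3 mice per group. Old ND was the exception, with 2 mice in the first batch and 4 in the second.

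The proteasome degrades ubiquitin-tagged proteins. Its 20S core is a barrel of alpha and beta rings in which Psmb5, Psmb6 and Psmb7 cut peptides, and the 19S cap of ATPases (Psmc genes) and non-ATPase subunits (Psmd genes) recognises, unfolds and feeds in substrates. Under interferon signalling, newly built cores take up Psmb8, Psmb9 and Psmb10 in place of Psmb5, Psmb6 and Psmb7, and the PA28 activator of Psme1 and Psme2 can cap the barrel, which changes the peptides available for display on MHC class I. Hepatocytes at rest hold mostly the constitutive form, while leukocytes express the immunoproteasome strongly.

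The genes for Psmb8 and Psmb9 lie in the MHC region of chromosome 17, on either side of Tap1, a subunit of the peptide transporter that supplies MHC class I. In GRCm38, Psmb9 (ENSMUSG00000096727) runs from 34181987 to 34187764 on the minus strand and overlaps the start of Tap1 by 212 bp on the opposite strand. Psmb8 (ENSMUSG00000024338) runs from 34197721 to 34201454 on the plus strand, and begins 495 bp after the end of Tap1. Psmb10 (ENSMUSG00000031897) lies on chromosome 8 from 105935735 to 105938444. Psme1 (ENSMUSG00000022216) and Psme2 (ENSMUSG00000079197) are neighbours on chromosome 14, from 55578123 to 55581529 and from 55587441 to 55591113, with 5911 bp between them. The constitutive counterparts Psmb5, Psmb6 and Psmb7 lie on chromosomes 14, 11 and 2. All of these are protein-coding genes. Whether counting used the strand is not given in the sources used here, so reads in the overlap of Psmb9 with Tap1 could belong to either.

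Promoter windows are shown for Psmb8, Psmb9 and Psme1 of the inducible side and for Psmb5 of the constitutive side, because the members of these sets differed in how they changed with age and diet. Each runs from 250 bases before to 50 bases after the RefSeq start (GRCm38.p6), and capitals mark a match to 1 of 4 short motifs on either strand. The motifs are GAAANNGAAA (core of the interferon-stimulated response element), TTCNNNGAA (core of the gamma-activated site), TGACNNNGC (core of the antioxidant-type element bound by Nfe2l1, an activator of proteasome genes) and CCAAT. Psmb8 is chr17:34197945-34198244 (plus strand), Psmb9 is chr17:34187281-34187580 (minus strand), Psme1 is chr14:55578244-55578543 (plus strand) and Psmb5 is chr14:54617946-54618245 (minus strand).
Psmb8: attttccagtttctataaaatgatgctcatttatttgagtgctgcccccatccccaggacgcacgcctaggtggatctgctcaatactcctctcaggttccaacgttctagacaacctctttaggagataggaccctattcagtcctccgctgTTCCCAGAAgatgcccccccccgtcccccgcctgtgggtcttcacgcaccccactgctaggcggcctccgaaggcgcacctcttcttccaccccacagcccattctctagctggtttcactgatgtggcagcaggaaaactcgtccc
Psmb9: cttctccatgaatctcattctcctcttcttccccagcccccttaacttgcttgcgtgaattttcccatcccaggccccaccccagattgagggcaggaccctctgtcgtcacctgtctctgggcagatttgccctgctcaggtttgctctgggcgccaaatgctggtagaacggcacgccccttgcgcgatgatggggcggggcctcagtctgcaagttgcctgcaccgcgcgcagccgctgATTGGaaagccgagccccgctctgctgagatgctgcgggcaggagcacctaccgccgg
Psme1: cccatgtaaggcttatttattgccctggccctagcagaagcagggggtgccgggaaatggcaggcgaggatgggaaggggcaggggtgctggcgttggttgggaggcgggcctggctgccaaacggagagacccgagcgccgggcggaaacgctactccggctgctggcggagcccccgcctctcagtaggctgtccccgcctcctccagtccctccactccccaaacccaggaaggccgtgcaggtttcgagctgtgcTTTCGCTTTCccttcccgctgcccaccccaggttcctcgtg
Psmb5: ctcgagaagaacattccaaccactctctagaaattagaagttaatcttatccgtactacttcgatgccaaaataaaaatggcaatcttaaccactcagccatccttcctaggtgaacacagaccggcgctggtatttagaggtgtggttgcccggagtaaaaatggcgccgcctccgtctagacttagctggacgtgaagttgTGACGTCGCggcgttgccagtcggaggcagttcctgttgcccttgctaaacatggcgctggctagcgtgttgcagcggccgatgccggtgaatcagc
The capitals are a gamma-activated site core that begins 97 bases before the start in Psmb8, a CCAAT box on the opposite strand 8 bases before the start in Psmb9, a response element core on the opposite strand 9 bases after the start in Psme1 and an antioxidant-type core 47 bases before the start in Psmb5. The palindromic gamma-activated core reads alike on both strands. RefSeq windows were found for 40 of the 47 members, 5 of the inducible side and 35 others. The interferon-stimulated core was in 1 of the 5 and 4 of the 35, against 3.99% of all genes with a window. The gamma-activated core was in 1 of the 5 and 2 of the 35, against 9.55% of all genes. The antioxidant-type core was in 0 of the 5 and 6 of the 35, against 14% of genes, and CCAAT was in 1 of the 5 and 12 of the 35, against 41.1%. A match is a description of the letters and not a bound site, and a window without a match says nothing of sites elsewhere.

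Total counts per mouse ranged from 9200332 to 22185069. Markers of hepatocytes were abundant in every mouse, since 9 of them summed to 55800 to 167000 CPM. Leukocyte markers were present at low and uneven levels. The sum of 31 such markers had a lowest, median and highest value of 10.3, 46.2 and 102 CPM in young ND and 37.3, 139 and 231 in young HFD, then 105, 181 and 1530 in old ND and 111, 186 and 790 for old HFD. Old ND replicates 3 and 4 and old HFD replicates 4 and 6 had sums over 500 CPM and are called leukocyte-rich below, a line drawn after seeing the data, and T and NK cell markers summed to at most 0.688 CPM in young ND. In bulk RNA a change in the number of cells of a type and a change in RNA per cell cannot be told apart. Old HFD replicate 2 stood apart among the members. It was the highest of the 6 old HFD mice for 39 of 47 members (83.0%, against 26.7% of the 13707 genes with at least 10 counts in 6 mice), with a median of 2.16-fold over the median of the other old HFD mice. Its leukocyte sum was 118 CPM, near the low end of the group. Results that rest on these mice are therefore given with and without them.

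**Figure D1:**
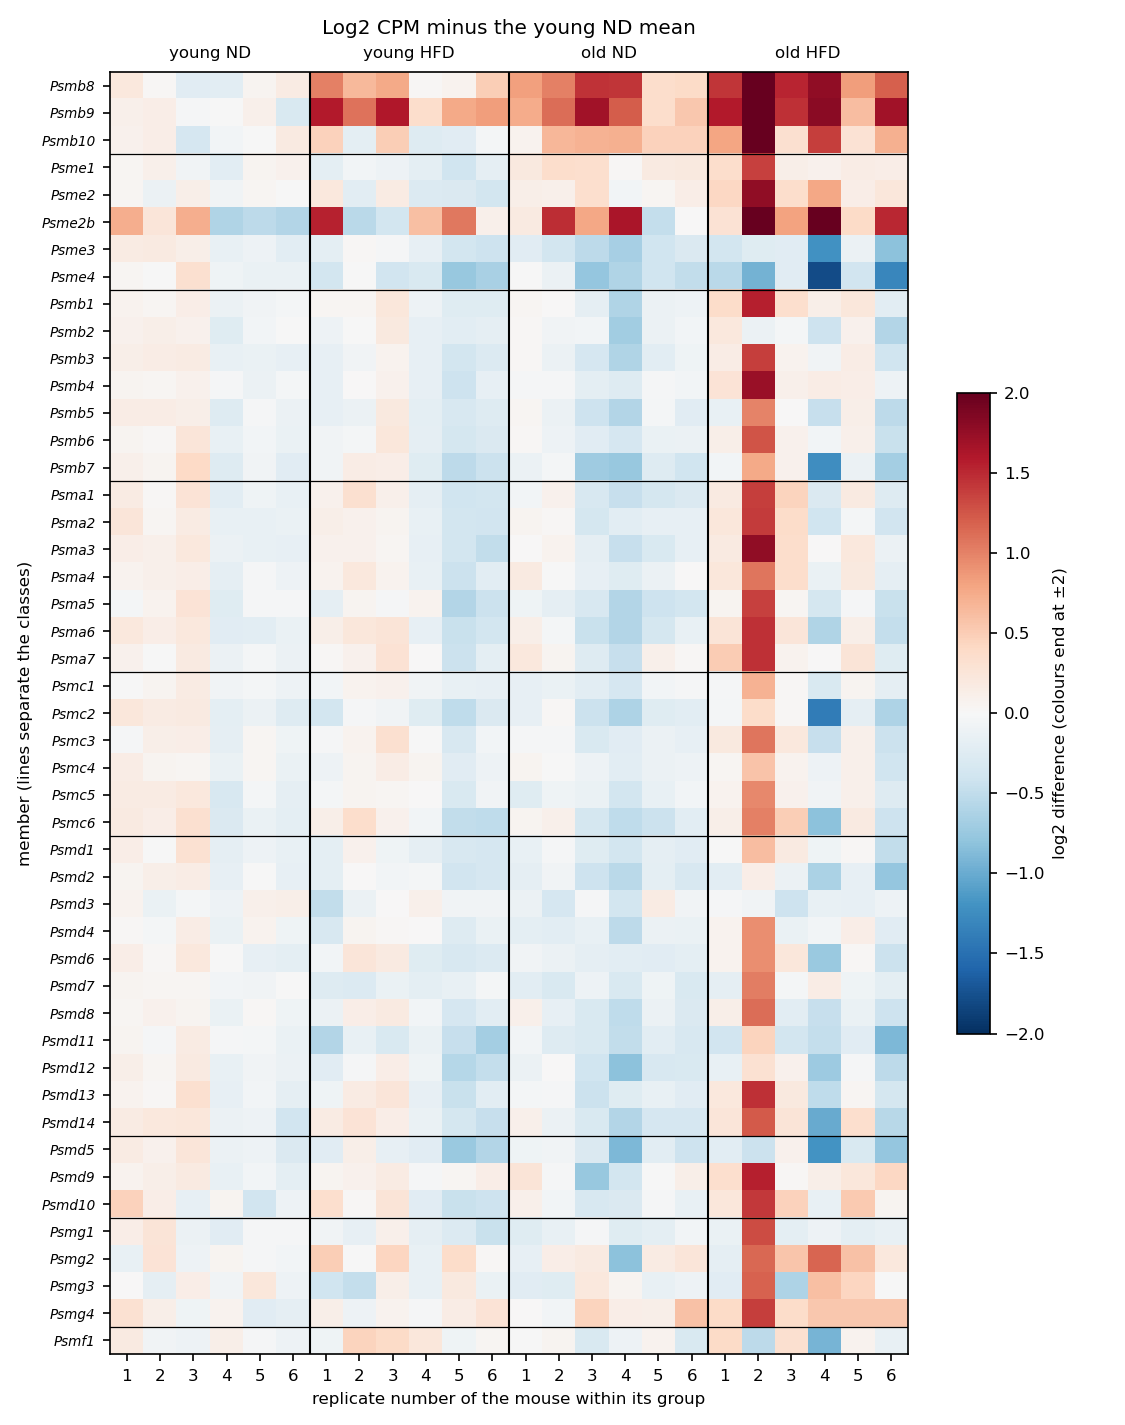
Log2 CPM of the 47 members (rows, separated by class) in each of the 24 mice (columns, by group and replicate number), as the difference from the young ND mean, with red higher and blue lower. The Psmb9 row is red across the young HFD, old ND and old HFD mice and the Psmb8 row across the old mice, most other rows stay pale, and old HFD replicate 2 is red in nearly every row.

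Among the catalytic subunits, Psmb8 and Psmb9 were lowest in young ND and highest in old HFD. Psmb8, which takes the place of Psmb5, had a lowest, median and highest level of 13.8, 16.6 and 18.7 CPM in young ND and 16.5, 24.0 and 32.5 CPM in young HFD. In old ND these were 20.6, 30.6 and 44.2 CPM and in old HFD 29.0, 45.1 and 107 CPM. Every old mouse on either diet was above every young ND mouse, young HFD overlapped young ND, and the 107 CPM belonged to old HFD replicate 2. Psmb9, which takes the place of Psmb6, had 5.4, 6.97 and 7.39 CPM in young ND and 8.62, 13.3 and 20.8 CPM in young HFD. In old ND it had 8.58, 13.1 and 21.8 CPM and in old HFD 10.4, 21.2 and 52.7 CPM. All mice of the 3 other groups were above the 6 young ND mice, and young HFD, old ND and old HFD overlapped one another.

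Psmb10, which takes the place of Psmb7, had 15.5, 20.1 and 22.2 CPM in young ND and 16.2, 18.0 and 27.5 CPM in young HFD. In old ND it had 20.4, 28.9 and 31.9 CPM and in old HFD 23.8, 32.9 and 107 CPM. All old HFD mice were above all young ND mice, and the other groups overlapped. The constitutive counterparts had wider overlap. Psmb5 had medians of 71.8 CPM in young ND and 61.2 in young HFD, then 61.7 in old ND and 66.4 for old HFD, over a range of 46.2 to 138 CPM. Psmb6 had medians of 84.8, 78.8, 78.6 and 91.6 CPM in the same order, and Psmb7 of 89.7, 80.7, 71.8 and 84.9 CPM. All 4 groups overlapped for each of these genes, and the highest value of each was that of old HFD replicate 2.

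**Figure D2:**
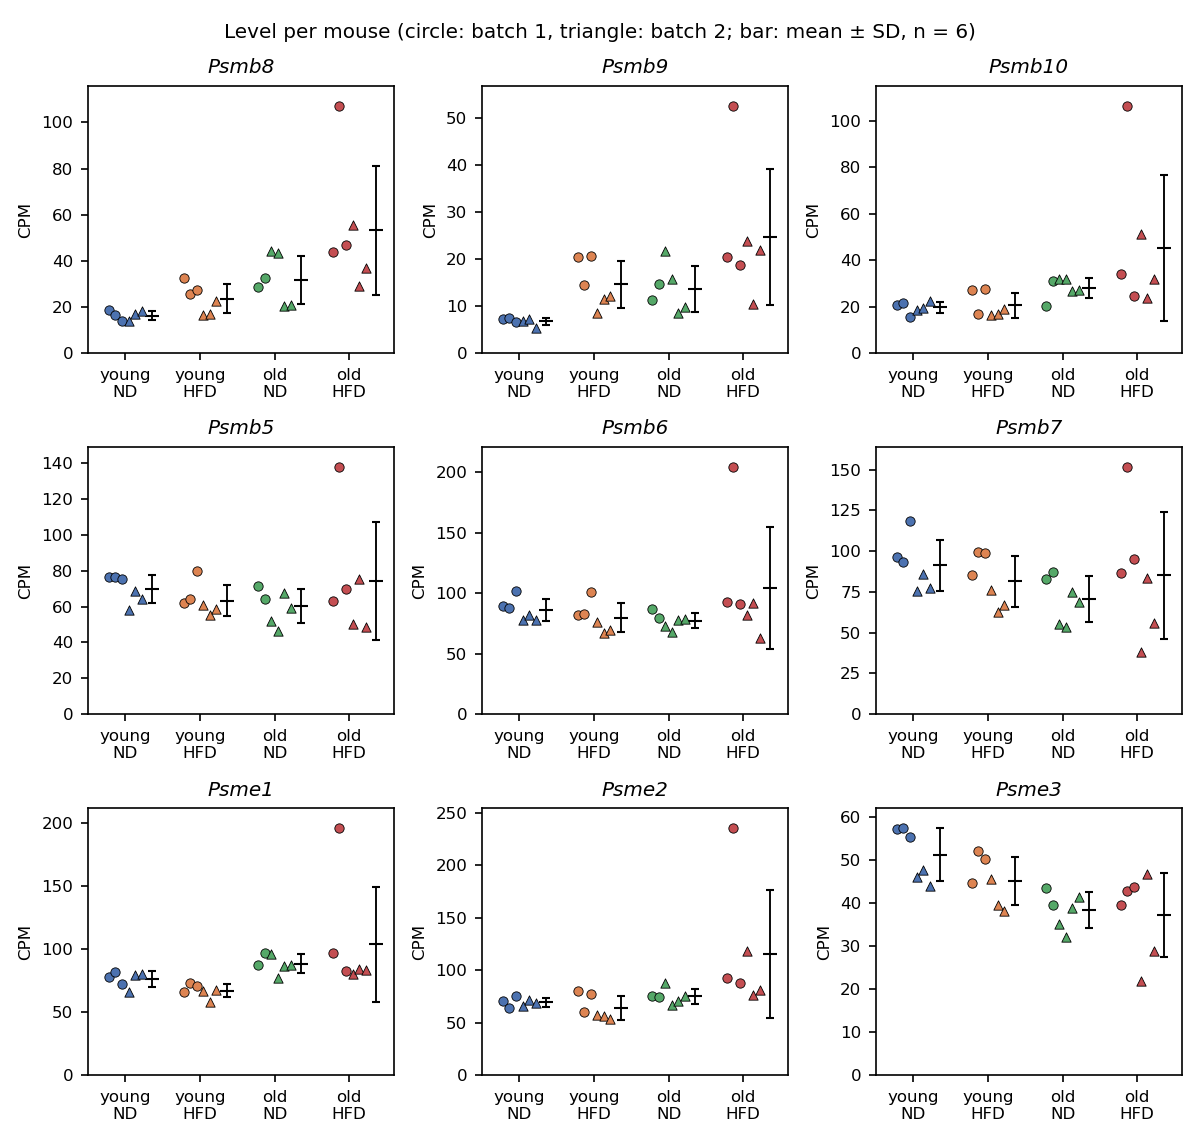
CPM (linear axis from 0) of the inducible catalytic subunits (top row), their constitutive counterparts (middle row) and the PA28 genes (bottom row) in each mouse by group, with circles for batch 1, triangles for batch 2 and bars for mean ± SD (n = 6). Psmb8 and Psmb9 step up from young ND to the other groups, Psmb5, Psmb6 and Psmb7 overlap, and a single old HFD mouse lies at the top of 8 of the 9 panels.

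The effect of diet in young mice addressed whether HFD alone moved these genes. Among the members, Psmb9 rose and no other passed the test. This is 1 of 47 higher and 0 lower, where 3.5% of all genes tested were called (1.91% higher and 1.59% lower). The log2 fold change of Psmb9 was 1.07 (standard error 0.27, edgeR quasi-likelihood adjusted p = 0.0313), 1.38 in batch 1 and 0.76 in batch 2. Psmb8 had 0.50 (standard error 0.24, edgeR quasi-likelihood adjusted p = 0.225) and Psmb10 had 0.05. The 42 other members had a median of -0.10, with 37 below 0, where the median of all genes tested was 0.01. At an unadjusted p under 0.05 by the edgeR quasi-likelihood F test 2 members were higher and 3 lower, where 12.3% and 8.92% of all genes were. Every young HFD mouse was above every young ND mouse for 1 member, Psmb9, where 1.77% of all genes had such groups, and below it for 1, the 19S subunit Psmd11 (-0.37, edgeR quasi-likelihood adjusted p = 0.13), where 3.06% did. All 7 constitutive beta ring subunits, all 7 alpha ring subunits, all 6 ATPases and all 11 non-ATPase subunits of the 19S cap had values below 0, between -0.37 and -0.00056, and none passed the test. The call of Psmb9 was lost when any of young ND replicates 1, 2, 3, 4 or 6 or young HFD replicates 1, 3, 5 or 6 was left out, with log2 fold changes of 0.99 to 1.17 and an adjusted p of at most 0.0747 over all 24 such fits by the edgeR quasi-likelihood F test. Leukocyte markers had positive values here too, with a median log2 fold change of 2.23 over 5 pan-leukocyte genes of which 0 were called and of 2.22 over 10 myeloid and Kupffer cell genes of which 1 was called. Stellate cell markers had a median of 1.68 with 2 of 6 called higher and sinusoidal endothelial markers 1.48 with 1 of 6, while T and NK cell markers had 1.94 and B and plasma cell markers 0.213 with 0 called. The part of these cells in the value of Psmb9 was not tested.

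On ND, Psmb8 and Psmb9 were higher in old mice, whose substrain also differed. These were 2 of 47 members higher, with 0 lower, where 8.5% of all genes tested were called (7.26% higher and 1.24% lower). Psmb8 had a log2 fold change of 1.02 in old ND over young ND (standard error 0.24, edgeR quasi-likelihood adjusted p = 0.0106), 0.93 in batch 1 and 0.98 in batch 2. Psmb9 had 1.10 (standard error 0.27, edgeR quasi-likelihood adjusted p = 0.014), 0.90 in batch 1 and 1.11 in batch 2. Psmb10 had 0.56 (adjusted p = 0.215), Psme1 0.25 (adjusted p = 0.364) and Psme2 0.16 (adjusted p = 0.674) by the edgeR quasi-likelihood F test. The 42 others had a median of -0.12, again with 37 below 0, where all genes had 0.01. At an unadjusted p under 0.05 by the edgeR quasi-likelihood F test 3 members were higher and 3 lower, where 15% and 7.24% of all genes were. Psme3, which encodes the nuclear activator PA28 gamma, had -0.36 (standard error 0.12, edgeR quasi-likelihood adjusted p = 0.0718), with every old ND mouse below every young ND mouse. Groups did not overlap for 2 members that were higher, Psmb8 and Psmb9, where 2.08% of all genes had such groups, and for 2 that were lower, Psme3 and the 19S subunit Psmd7 (-0.20), where 1.72% did.

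Leukocyte markers rose in the same comparison. All 5 pan-leukocyte and all 10 myeloid and Kupffer cell genes were called higher, with median log2 fold changes of 3.53 and 3.51, as were 2 of 4 T and NK cell, 3 of 3 B and plasma cell, 4 of 6 sinusoidal endothelial and 5 of 6 stellate cell genes. Without the 4 old mice over 500 CPM of leukocyte markers, a choice made after seeing the data, 0 members were called, while 0.692% of all genes were. In that fit Psmb8 had a log2 fold change of 0.63 (standard error 0.22, edgeR quasi-likelihood adjusted p = 0.186) and Psmb9 had 0.70 (standard error 0.26, edgeR quasi-likelihood adjusted p = 0.213). The part of these cells in the values of Psmb8 and Psmb9 was not tested.

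**Figure D3:**
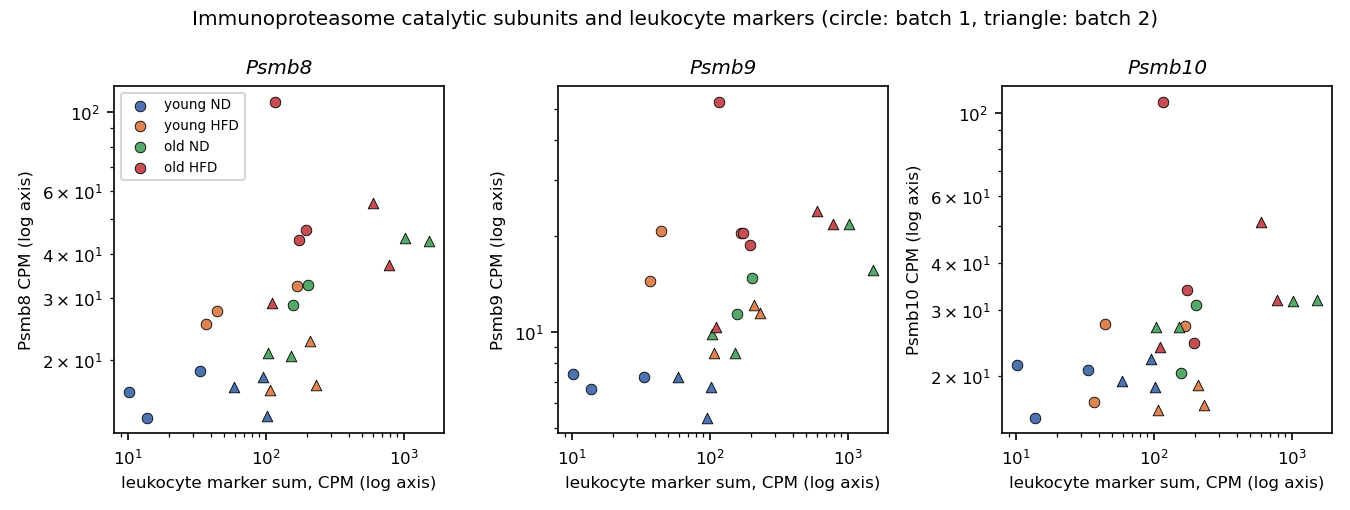
CPM of Psmb8, Psmb9 and Psmb10 (y axes, log scale) against the summed CPM of 31 leukocyte markers (x axes, log scale) in each mouse, coloured by group, with circles for batch 1 and triangles for batch 2. The 4 mice at the right, over 500 CPM of markers, are old, and old HFD replicate 2 has the highest value of all 3 genes at a marker sum of 118 CPM.

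Between old and young mice on HFD, members called higher were Psmb8, Psmb10, Psme1 and Psme2. Of 47 members, 4 rose and 0 fell, all 4 on the inducible side, where 2.24% of all genes tested were called (1.82% higher and 0.42% lower). Psmb8 had a log2 fold change of 1.17 in old HFD over young HFD (standard error 0.24, edgeR quasi-likelihood adjusted p = 0.0171), 1.17 in batch 1 and 1.10 in batch 2. Psmb10 had 1.13 (standard error 0.26, edgeR quasi-likelihood adjusted p = 0.0302), 1.17 in batch 1 and 1.03 in batch 2. The 42 others had a median of 0.26, with 8 below 0, and of 0.05 without old HFD replicate 2. Without adjustment 21 members were higher and 2 lower at p under 0.05 by the edgeR quasi-likelihood F test, where 12.3% and 8.69% of all genes were. DESeq2 called 10 members higher, where it called 5.53% of all genes, and 6 of these, Psma3, Psma4, Psmb1, Psmb4, Psmd10 and Psmg4, were outside the inducible side. Psmb9 had 0.76 (standard error 0.26, edgeR quasi-likelihood adjusted p = 0.113), and its levels in young HFD were already above those in young ND. For 2 members, Psme1 and the 20S assembly chaperone Psmg4 (0.60, edgeR quasi-likelihood adjusted p = 0.0786), every old HFD mouse was above every young HFD mouse, where 0.552% of all genes had such groups, and for 0 the groups were apart the other way, where 0.25% did.

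The subunits of the PA28 cap, Psme1 and Psme2, differed between old and young mice on HFD. Psme1 had a lowest, median and highest level of 66.1, 78.7 and 81.9 CPM in young ND and 57.7, 66.9 and 73.1 CPM in young HFD. In old ND it had 77.3, 87.2 and 97.2 CPM and in old HFD 80.7, 83.7 and 197 CPM. All old HFD mice were above all young HFD mice, and old HFD overlapped old ND. In log2 terms, Psme1 in old HFD exceeded young HFD by 0.62 (standard error 0.15, edgeR quasi-likelihood adjusted p = 0.0372), 0.80 in batch 1 and 0.36 in batch 2. Psme2 had 63.9, 69.8 and 75.2 CPM in young ND and 53.3, 58.6 and 79.9 in young HFD, then 66.4, 74.7 and 87.4 in old ND and 76.0, 90.2 and 236 for old HFD. Old and young HFD overlapped for Psme2 through the lowest old HFD and the highest young HFD mice. In log2 terms old HFD exceeded young HFD by 0.84 (standard error 0.19, edgeR quasi-likelihood adjusted p = 0.0235), 0.90 in batch 1 and 0.71 in batch 2.

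These calls on HFD were sensitive to leaving out single mice. Without old HFD replicate 2 the log2 fold changes were 0.88 for Psmb8 (adjusted p = 0.0388), 0.36 for Psme1 (adjusted p = 0.0333) and 0.52 for Psme2 (adjusted p = 0.0312), and 0.68 for Psmb10 (adjusted p = 0.0827), which was no longer called by the edgeR quasi-likelihood F test. Without young HFD replicate 4 or 5 no member was called higher, where 0.253% and 0.377% of all genes were. Psmb10 and Psme2 were also lost without young HFD replicate 2 or 6 or old HFD replicate 4, and Psme1 without young ND replicate 2 or 5, young HFD replicate 1, 2, 3 or 6 or old HFD replicate 4, with an adjusted p of at most 0.0859 over all such fits. Without the 4 mice over 500 CPM of leukocyte markers 1 member was called, where 0.692% of all genes were, Psmb8 (log2 fold change 1.10, edgeR quasi-likelihood adjusted p = 0.025). The log2 fold changes of the others were 1.09 for Psmb10 (adjusted p = 0.0824), 0.71 for Psme1 (adjusted p = 0.054) and 0.85 for Psme2 (adjusted p = 0.0599) by the edgeR quasi-likelihood F test. These were about as large as with all mice, but old HFD replicate 2 was among the 4 old HFD mice kept. The part of that mouse in these values was not tested. Of the 5 pan-leukocyte markers 0 were called in old HFD over young HFD, with a median log2 fold change of 1.25, and of the 10 myeloid markers 0 were called, with a median of 0.941. T and NK cell markers had a median of 2.05 with 0 of 4 called and B and plasma cell markers 2.01 with 1 of 3 called higher, while sinusoidal endothelial (0.0528) and stellate cell markers (0.541) had 0 of 6 called each.

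In old mice, HFD gave no member past the test, 0 of 47, where 3.01% of all genes tested were called (1.37% higher and 1.64% lower). Without adjustment, 23 members had a higher level and 1 a lower level at p under 0.05 by the edgeR quasi-likelihood F test, where 10.9% of all genes did so higher and 11.1% lower, and DESeq2 called 7 higher, where it called 8.43% of all genes. Psmb9 had a log2 fold change of 0.73 in old HFD over old ND (standard error 0.27, adjusted p = 0.116), Psmb8 0.65 (standard error 0.24, adjusted p = 0.122), Psmb10 0.62 (standard error 0.27, adjusted p = 0.172) and Psme2 0.55 (standard error 0.19, adjusted p = 0.0947) by the edgeR quasi-likelihood F test. Old HFD and old ND overlapped for all 47 members, where 0.471% of all genes had old HFD apart above and 0.788% below. The 42 others had a median of 0.30, with 33 above 0, where all genes had -0.01. Without old HFD replicate 2 that median was 0.11, and 0 members were called, where 2.33% of all genes were. The log2 fold changes were then 0.46 for Psmb9, 0.40 for Psmb8, 0.24 for Psmb10 and 0.27 for Psme2. Pan-leukocyte markers had a median of -0.28 in this comparison with 0 of 5 called, and hepatocyte markers one of -0.41 with 1 of 9 called higher. Without the 4 mice over 500 CPM of leukocyte markers Psmb8 was called higher (log2 fold change 0.97, edgeR quasi-likelihood adjusted p = 0.0407), as were Psma1 (0.65) and Psmd14 (0.62), where 1.54% of all genes were. Old HFD replicate 2 was among the 4 old HFD mice kept in that fit. With it alone left out Psma1 had 0.27 and Psmd14 0.145, and neither was called. The test of the age by diet interaction, diet in old minus diet in young, called 0 members and 0% of all genes. Without adjustment 11 members were positive and 0 negative at p under 0.05, where 3.61% of all genes were positive and 5.57% negative, and DESeq2 called 0 members, where it called 0.0217% of all genes. The interaction values were 0.68 for Psme2 (95% confidence interval 0.13 to 1.22, adjusted p = 0.531), 0.58 for Psmb10 (-0.19 to 1.35, adjusted p = 0.63), 0.15 for Psmb8 (-0.55 to 0.84, adjusted p = 0.923) and -0.34 for Psmb9 (-1.11 to 0.44, adjusted p = 0.808) by the edgeR quasi-likelihood F test. Without old HFD replicate 2 they were 0.39 for Psme2, 0.17 for Psmb10, -0.12 for Psmb8 and -0.63 for Psmb9.

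Age and diet together, old HFD against young ND, gave the most calls among the members. Of 47, 12 rose and 3 fell, where 30.2% of all genes tested were called (17.3% higher and 12.9% lower), so the share of members called was close to that of all genes. All 5 genes of the inducible side rose, and 7 of the 42 others rose and 3 fell. Without Psme2b, a member only through its level in old HFD, these were 11 of all members and 6 of the others. Hepatocyte markers had a median log2 fold change of -0.29 with 2 of 9 higher and 3 lower, and their sum had a median of 130000 CPM in young ND and 91600 for old HFD, with overlap. Markers of other liver cells moved with them: all 5 pan-leukocyte genes were called higher (median log2 fold change 3.32), 9 of 10 myeloid and Kupffer cell genes (3.01), all 4 T and NK cell genes tested (4.22), 2 of 3 B and plasma cell genes (2.22), all 6 sinusoidal endothelial genes (1.52) and 5 of 6 stellate cell genes (1.96). Their part in the member values was not tested. Psmb9 had a log2 fold change of 1.83 (standard error 0.27, edgeR quasi-likelihood adjusted p = 0.000121), 2.07 in batch 1 and 1.55 in batch 2. Psmb8 had 1.67 (standard error 0.24, edgeR quasi-likelihood adjusted p = 9.74e-05), 1.97 in batch 1 and 1.33 in batch 2. Psmb10 had 1.18 (adjusted p = 0.00274), Psme2 0.71 (adjusted p = 0.00747) and Psme1 0.43 (adjusted p = 0.0392) by the edgeR quasi-likelihood F test. At an unadjusted p under 0.05 by that test 16 members were higher and 4 lower, where 24% and 18.3% of all genes were. The median was 1.18 over the inducible side, 0.18 over the 42 others and 0.04 over all genes. For 4 of the 5, Psme1 excepted, and for 1 of the 42 others, Psmg4, the groups did not overlap, where 2.99% of all genes had every old HFD mouse above every young ND mouse.

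**Figure D4:**
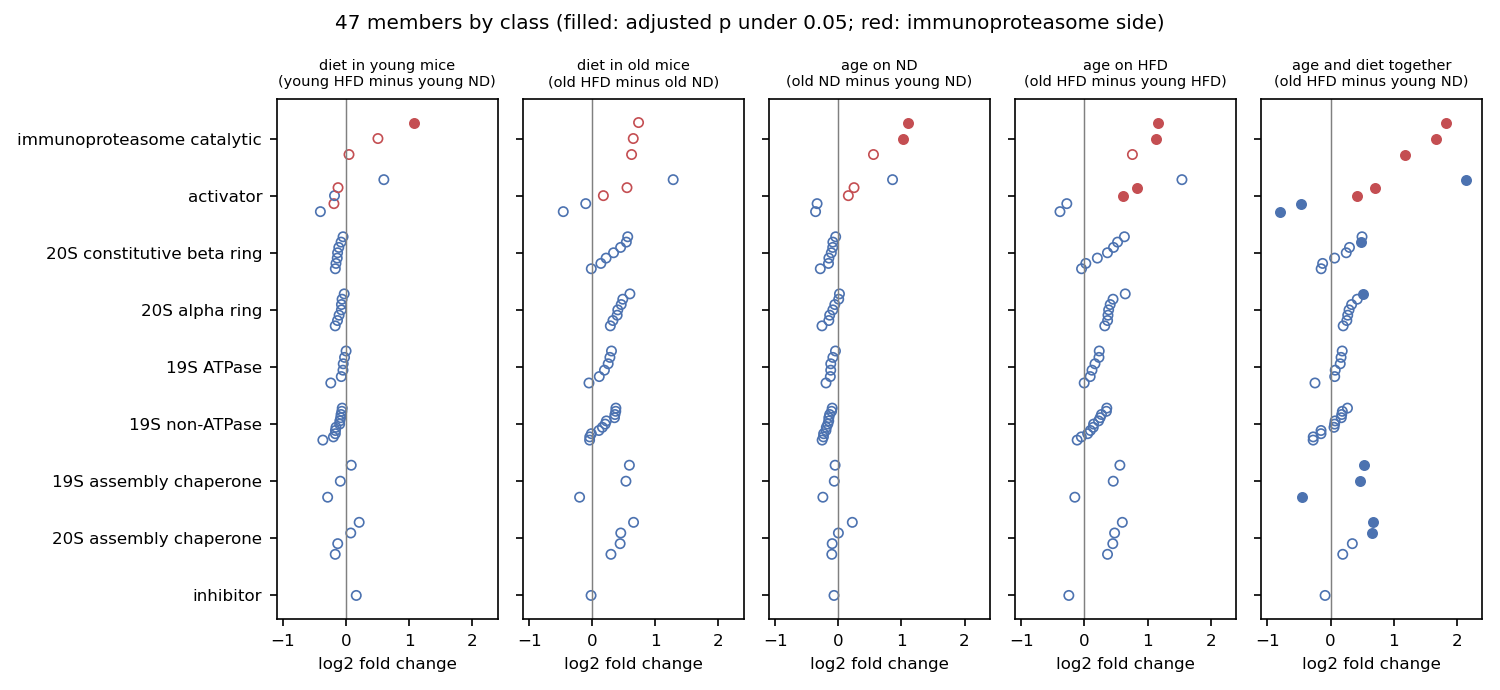
Log2 fold change (x axes) of the 47 members by class (rows) in the 5 comparisons (panels, with the groups in the panel titles), filled where the adjusted p is under 0.05 and red for Psmb8, Psmb9, Psmb10, Psme1 and Psme2. Filled points are 1 in the first panel, 0 in the second, 2, 4 and 15 in the others, and the 20S and 19S subunits lie mostly below 0 for diet in young mice and age on ND and mostly above 0 for diet in old mice and age on HFD.

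Of the other activators, Psme4 and Psme3 fell. Psme4, which encodes the PA200 activator, had a lowest, median and highest level of 154, 164 and 211 CPM in young ND and 99.6, 131 and 168 in young HFD, then 98.8, 124 and 167 in old ND and 48.9, 102 and 144 for old HFD. Every old HFD mouse was below every young ND mouse, which held for 1 member and 4.27% of all genes, and the log2 fold change between them was -0.80 (standard error 0.17, edgeR quasi-likelihood adjusted p = 0.00175), -0.69 in batch 1 and -0.92 in batch 2. Psme3 had 43.9, 51.4 and 57.5 CPM in young ND and 38.1, 45.1 and 52.0 in young HFD, then 32.0, 39.2 and 43.5 in old ND and 21.9, 41.2 and 46.8 for old HFD. Old HFD and young ND overlapped for Psme3, and its log2 fold change was -0.46 (standard error 0.12, edgeR quasi-likelihood adjusted p = 0.00791). Both fell in all 24 fits that left out 1 mouse. Psme2b rose by 2.14 (standard error 0.60, edgeR quasi-likelihood adjusted p = 0.0106), but it is a near-identical copy of Psme2, and reads of the pair could be assigned to either. Its mean was 0.607 CPM in young ND, 0.889 in young HFD and 1.05 in old ND, against 2.58 for old HFD, so it passed the 1 CPM filter for members through old HFD alone and had to be highest there. Its call is therefore no result about the members.

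Among assembly factors, Psmg4 and Psmg2, chaperones that help build the 20S alpha ring, rose. Psmg4 had 3.5, 4.07 and 5.11 CPM in young ND and 5.31, 5.99 and 10.8 CPM in old HFD, with no overlap, and a log2 fold change of 0.67 (standard error 0.18, edgeR quasi-likelihood adjusted p = 0.00911). Psmg2 had a log2 fold change of 0.66 (adjusted p = 0.0177), and the 19S chaperones Psmd9 and Psmd10 had 0.54 (adjusted p = 0.0308) and 0.47 (adjusted p = 0.0439), while the 19S chaperone Psmd5 fell by 0.45 (adjusted p = 0.0177) by the edgeR quasi-likelihood F test. Psmd9 overlaps Hpd, an abundant liver enzyme of tyrosine breakdown, over 10921 bp on the opposite strand, and Psmd5 overlaps Cutal over 573 bp, so without strand their reads may be shared. Of the structural subunits, Psma3 of the alpha ring rose by 0.51 (adjusted p = 0.0421) and Psmb1 of the beta ring by 0.48 (adjusted p = 0.0365) by the edgeR quasi-likelihood F test, and 0 of 6 ATPases and 0 of 11 non-ATPase subunits were called.

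Most of the calls of rises outside the inducible side were lost without old HFD replicate 2, with log2 fold changes of 0.53 for Psmg2, 0.25 for Psmd10 and Psmd9, 0.19 for Psmb1 and 0.16 for Psma3. The counts were then 6 higher and 5 lower, where 15.7% of all genes were called higher and 11.8% lower. The 6 were Psmb8 (1.39), Psmb9 (1.52), Psmb10 (0.75), Psme2 (0.41), Psmg4 (0.46) and, with its membership resting on old HFD, Psme2b (1.80) in log2 fold change, and the 5 were Psme4 (-0.74), Psme3 (-0.48), Psmd11 (-0.45), Psmd5 (-0.41) and Psmd2 (-0.34), of which Psmd11 and Psmd2 are 19S subunits. The median of the 42 others changed sign, from 0.18 to -0.04, with 29 of 42 below 0, while without the leukocyte-rich mice it was 0.33, with 8 below 0. Without young ND replicate 2 the count higher was 7, where 13.8% of all genes were, and without the 4 mice over 500 CPM of leukocyte markers it was 18, all 5 of the inducible side included, with 2 lower, where 10.6% of all genes were called higher and 8.55% lower. Of these 18, 13 were outside the inducible side. The mice left out of that fit were all of batch 2, and old HFD replicate 2 was among the 4 old HFD mice kept. Psme1 was lost without young ND replicate 1, 2, 3 or 4 or old HFD replicate 2 (0.17, edgeR quasi-likelihood adjusted p = 0.125), and Psmd5 without old HFD replicate 4 (-0.32, edgeR quasi-likelihood adjusted p = 0.0665). Psmb8, Psmb9, Psmb10, Psme2, Psmg4, Psme3 and Psme4 were called in all 24 fits that left out 1 mouse, while Psmg2 was called in 22, Psmb1 in 19, Psmd9 in 18, Psma3 in 16 and Psmd10 in 12. The fits in which these 5 were lost left out, besides old HFD replicate 2, old HFD replicate 4 for Psmg2, young ND replicate 1, 2, 3 or 4 for Psmb1, young ND replicate 1, 2, 4 or 6 or old HFD replicate 6 for Psmd9 and any young ND mouse or old ND replicate 1 for Psma3. For Psmd10 they were spread over all 4 groups.

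The shift within the complex was described by setting each gene against the 14 constitutive 20S subunits of the same mouse, which removes what these 14 share. The rise of old HFD replicate 2 was not shared by every member, with folds over the median of the other old HFD mice down to 0.66 for Psmf1. The mean of these 14 was 6.41 ± 0.14 log2 CPM (SD over 6 mice, n = 6) for young ND and 6.30 ± 0.21 in young HFD, then 6.22 ± 0.19 in old ND and 6.59 ± 0.57 for old HFD, where the highest mouse, old HFD replicate 2, had 7.66. Relative to that mean and to young ND, Psmb9 was higher by a log2 difference of 1.16 (young HFD), 1.14 (old ND) and 1.52 (old HFD), with all 6 mice of each group above every young ND mouse. Psmb8 was higher by 0.61, 1.10 and 1.40, with 5, 6 and 6 mice above. Psmb10 was higher by 0.15, 0.70 and 0.81, with 2, 5 and 4 mice above. Psme1 differed by -0.08, 0.40 and 0.18 and Psme2 by -0.02, 0.30 and 0.43, with 0, 5 and 2 mice above every young ND mouse for Psme1 and 1, 5 and 5 for Psme2. Psme3 differed by -0.08, -0.23 and -0.68, with 3, 6 and 6 mice below every young ND mouse. Without old HFD replicate 2, in which Psme3 stayed level while the 14 rose, its old HFD difference was -0.52, and those of the inducible side were 1.48 for Psmb9, 1.39 for Psmb8, 0.73 for Psmb10, 0.41 for Psme2 and 0.19 for Psme1. Without the leukocyte-rich mice the old ND and old HFD differences were 0.78 and 1.24 for Psmb9, 0.73 and 1.20 for Psmb8, 0.50 and 0.53 for Psmb10, 0.32 and 0.06 for Psme1, 0.18 and 0.24 for Psme2 and -0.24 and -0.67 for Psme3. All 4 remaining mice of both old groups were still above every young ND mouse for Psmb8 and Psmb9, while for Psme1 0 of 4 old HFD mice were.

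Shares within each pair of alternatives were formed on a scale per transcript length, since levels of different genes can be compared in no other way. On the FPKM values (fragments scaled to transcript length and library size), Psmb8 made up 19.7% ± 2.09 (SD, n = 6) of the sum of Psmb8 and Psmb5 in young ND and 27.8% ± 4.62 in young HFD, then 35.6% ± 11.3 in old ND and 43.0% ± 8.94 for old HFD. All old mice were above all young ND mice, and 5 of the 6 old HFD mice were above every young HFD mouse. Psmb9 made up 2.65% ± 0.415 of its sum with Psmb6 in young ND and 6.24% ± 1.44 in young HFD, then 6.46% ± 3.04 in old ND and 9.05% ± 3.82 for old HFD. The 3 other groups did not overlap young ND, but overlapped one another. Psmb10 made up 86.4% ± 2.31 of its sum with Psmb7 in young ND and 86.2% ± 2.93 in young HFD, then 90.9% ± 1.68 in old ND and 90.7% ± 5.55 for old HFD. Psme1 and Psme2 together made up 87.3% ± 1.58 of their sum with Psme3 in young ND and 87.0% ± 1.65 in young HFD, then 90.6% ± 1.64 in old ND and 91.9% ± 2.52 for old HFD. Without the leukocyte-rich mice (n = 4 in each old group) the shares were 28.7% ± 4.84 and 39.4% ± 8.07 for Psmb8, 4.56% ± 0.924 and 7.1% ± 2.64 for Psmb9, 90.0% ± 1.2 and 89.1% ± 5.94 for Psmb10 and 90.5% ± 1.29 and 91.3% ± 2.83 for the PA28 pair, old ND before old HFD.

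The absolute shares depended on how length was taken into account. With CPM divided by the annotated exon length, Psmb8 made up 5.86% in young ND and 16.1% in old HFD, Psmb9 3.89% and 10.8%, and Psmb10 30.5% and 49.9%, so which of Psmb10 and Psmb7 is the more abundant is not settled by these data. The order of young ND below old ND and old HFD was the same on both scales for all 4 pairs. FPKM values of Psmb7 were low for its counts, at 1.58 ± 0.172 in young ND where Psmb5 had 21.8 ± 2.12, and Psmb7 overlaps Nek6 over 6571 bp on the opposite strand.

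**Figure D5:**
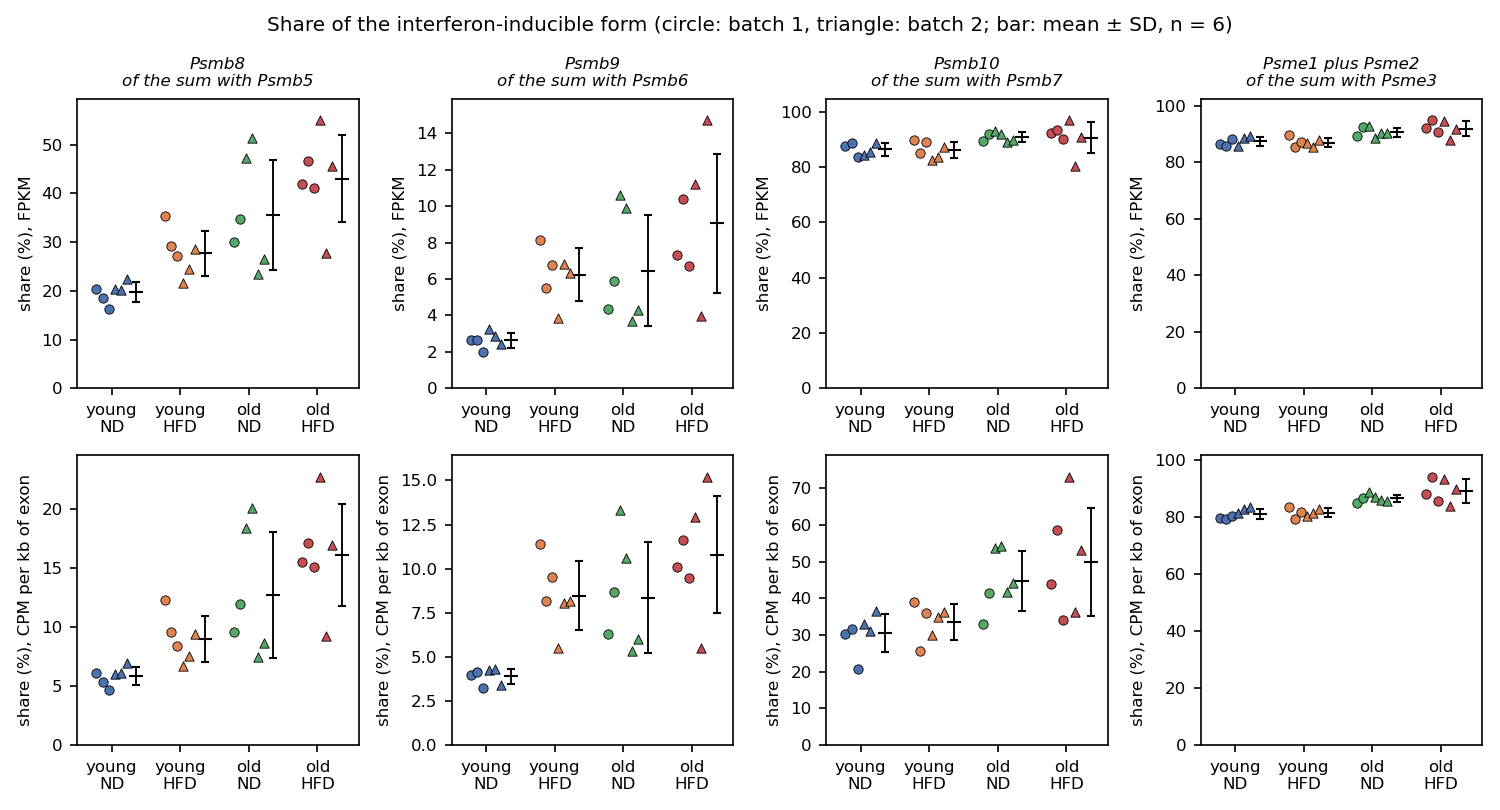
Share in percent (linear axes from 0) of the inducible gene in its sum with the constitutive counterpart in each mouse by group, from FPKM (top row) and from CPM per kilobase of exon (bottom row), with circles for batch 1, triangles for batch 2 and bars for mean ± SD (n = 6). The Psmb8 and Psmb9 shares rise from young ND to the other groups in both rows, while the height of the Psmb8 and Psmb10 shares differs between the rows.

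The spread between mice also differed. The median SD of log2 CPM over the 42 others was 0.159 in young ND and 0.216 in young HFD, then 0.188 in old ND and 0.566 for old HFD, and over all genes 0.238, 0.291, 0.338 and 0.543. The inducible side had 0.164, 0.351, 0.244 and 0.643, the last of which was 0.354 without old HFD replicate 2. The genes whose mean level lay between the lowest and the highest of the 42 others had 0.211, 0.264, 0.293 and 0.49. This wide set held 10933 of the 13583 genes tested and was not matched in level to each member. The median SD of the 42 others was thus below that of the wide set in 3 groups and above it in old HFD. The part of level in this difference was not tested. The excess in old HFD rested on old HFD replicate 2, without which the 42 others had 0.282 and the wide set 0.388 in that group.

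Of 14 interferon regulators of the immunoproteasome genes that were tested, 6 rose in old ND over young ND and 0 fell, where 7.26% of all genes were higher, with a median log2 fold change of 0.44. Among them were Irf1 (0.91, adjusted p = 0.00522), which binds the interferon-stimulated response element, Irf7 (1.77, adjusted p = 0.00249) and Nlrc5 (0.96, adjusted p = 0.00432), the activator of MHC class I genes, by the edgeR quasi-likelihood F test. Irf8, a factor known mostly from leukocytes, was another (2.29, edgeR quasi-likelihood adjusted p = 0.0081). Without the 4 leukocyte-rich mice Irf7 alone of the 14 was called in this comparison, where 0.633% of all genes were called higher, and the median log2 fold change of the 14 was 0.26. With age and diet together, where 17.3% of all genes were called higher, 8 of 14 rose, among them Irf1 by 1.04, Irf7 by 2.2 and Nlrc5 by 1.02. In old HFD over young HFD 2 rose (where 1.82% of all genes did), Irf7 (1.72) and Irf9 (0.61), and both were also called without the leukocyte-rich mice. For age and diet together 6 were then called, among them Irf1, Irf7 and Nlrc5, where 10.6% of all genes were higher. With diet 0 of 14 passed in young or in old mice, where 3.5% and 3.01% of all genes did, and without the leukocyte-rich mice 4 and 2 were higher, where 4.95% and 1.54% of all genes were.

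Of 10 genes of peptide trimming and loading on MHC class I, Tap1, the neighbour of Psmb9, rose in the same comparisons as Psmb9. Its log2 fold change was 0.99 in young HFD over young ND (standard error 0.22, edgeR quasi-likelihood adjusted p = 0.0181), 0.87 in old ND over young ND (standard error 0.22, edgeR quasi-likelihood adjusted p = 0.017) and 1.53 in old HFD over young ND. It was the single gene of the list called in each of the first 2 comparisons, where 3.5% and 8.5% of all genes were called. With age and diet together, where 17.3% of all genes were called higher, 4 of 10 rose and 0 fell, Tap1, Tap2 (1.01), the loading factor Tapbp (1.09) and the MHC class I light chain B2m (0.71), with a median of 0.15 over the list. The trimming enzyme Erap1 had -0.05. Without the leukocyte-rich mice Tap1 was called in both of the first comparisons and the same 4 genes were called in old HFD over young ND.

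Other partners of the proteasome moved in both directions. Of 14 tested in old HFD over young ND, 2 rose, the 19S subunit Sem1 (0.98) and the core assembly factor Pomp (0.57), and 5 fell, where 17.3% of all genes were higher and 12.9% lower, among them the ubiquitin receptor Adrm1 (-0.38), with a median of -0.29 over the list. Without old HFD replicate 2 the counts were 1 higher, Sem1, and 8 lower, where 15.7% of all genes were higher and 11.8% lower. Without the leukocyte-rich mice they were 2 higher, Sem1 and Pomp, and 1 lower, Ubqln4, with a median of -0.12. In that fit 10.6% of all genes were higher and 8.55% lower, and Adrm1 was not called. Sem1 was also called in old HFD over old ND (0.93, edgeR quasi-likelihood adjusted p = 0.0429). It kept that call without old HFD replicate 2 but lost it without the leukocyte-rich mice, where 1.54% of all genes were higher. Of the 8 genes around Nfe2l1, the factor that raises proteasome genes when proteasome activity is short, 0 rose in any comparison. Of all genes, 0% (interaction) to 17.3% (age and diet together) were called higher. Ddi2, the protease that activates Nfe2l1, fell in old HFD over young HFD (-0.46, adjusted p = 0.046) and over young ND (-0.41, adjusted p = 0.0154), and Nfe2l1 had -0.26 (adjusted p = 0.178) and -0.15 (adjusted p = 0.298) by the edgeR quasi-likelihood F test. Of all genes 0.42% and 12.9% were called lower in these comparisons. Without old HFD replicate 2 Ddi2 was called over young ND but not over young HFD. Without the leukocyte-rich mice 0 of the 8 were called in either comparison, where 0.0736% (over young HFD) and 8.55% (over young ND) of all genes were lower. Of 7 ubiquitin genes, 3 rose in old HFD over young ND (where 17.3% of all genes did), among them Uba7 (1.71), which activates the ubiquitin-like Isg15, and Rps27a (0.66), and Uba1 (-0.71), the main ubiquitin-activating enzyme, fell.

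Transcript lengths of the members called in old HFD over young ND overlapped widely. The median annotated exon length was 1986 bp for the 12 that rose (555 to 7248 bp), 7230 bp for the 3 that fell (2949 to 8382 bp) and 2804 bp for the 32 not called (899 to 7265 bp). Over all genes the medians were 3477, 5943 and 4006 bp. Across the 47 members Spearman's rho between exon length and log2 fold change was -0.35, and across 13571 genes it was -0.23, both given as descriptions since genes of the same mice share their libraries. The part of transcript length in the member values was not tested.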

How the data were processed

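RNA-seq libraries of hepatocytes from 24 mice were analysed, with group, replicate and batch taken from the sample labels. The authors aligned reads to mm10 with STAR (2.7.3a) in 2 passes and deposited the counts that HTSeq 0.11.2 gave per gene of a Gencode annotation. They also deposited FPKM values from CuffLinks, adjusted between batches with ComBat. FastQC 0.11.8 is named in the submitters' processing notes, and the handling of strand and duplicates is not given in the sources used here. The 0 columns without a matching sample needed no exclusion.

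Counts were tested in edgeR 4.0.16 (R 4.3.3) with TMM normalization, filterByExpr by group, a single model over the 24 mice (terms for group and batch), quasi-likelihood F tests and Benjamini-Hochberg adjustment over the 13583 genes tested, at an adjusted p of 0.05. The script was tested on simulated data. Intervals are 95%. Log2 CPM used a prior count of 2. Each fit was repeated with DESeq2 1.42.0, RLE normalization, no count filter, no batch term, a replicate block, the 2 groups alone, limma 3.58.1 on log2(FPKM + 1) and log2(FPKM + 0.1) for genes over 0.5 FPKM, each batch alone, and without each mouse. The tests set differences between groups against the spread between mice, and since reads carry no molecular identifiers, counting error is a lower limit.

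Named genes were the 9 catalytic and PA28 members and the 5 highest and 5 lowest called members of each comparison. The members and lists were chosen with earlier results of these data known. Values of some list genes are not reported here. Positions and exon lengths are from GENCODE for GRCm38, of another release than the authors used, and promoters are from RefSeq. Shares, motifs and figures were made in Python 3.11.15 with pandas 2.3.3, numpy 2.4.6, matplotlib 3.10.9 and scipy 1.17.1.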

Additional observations from a re-analysis of the deposited data

Results flagged for a closer look

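Of 88 sets of 6 mice examined (the log2 CPM of each of 18 named members and the FPKM share of each of 4 pairs, within each of 4 groups), 8 had a highest or lowest mouse whose gap to the next took up more of the group's range than Dixon's 95% limit allows. Chance flags about 1 in 20 groups. In 6 of the 8 the mouse was old HFD replicate 2, the highest of its group, with a log2 CPM of 8.73 for Psma3, 8.45 for Psmb1, 7.68 for Psmb6, 7.62 for Psme1, 6.54 for Psmd9 and 3.45 for Psmg4. The members share this mouse and its library, so these 6 are not separate observations. Old ND replicate 4 had the lowest Psmb1 of its group at 6.29, and it also had the highest leukocyte marker sum of all mice at 1530 CPM. Young ND replicate 6 had the lowest Psmb9 of its group at 2.47.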

How the results depend on the processing

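Counts of members called higher moved by more than 1.5 times under several settings, and the cause was not tested except where fewer mice entered the fit. Shares of all genes called in either direction stand in parentheses. In young HFD over young ND (3.5%) the count of 1 became 2 without the count filter (4.56%) and with the 2 groups alone (18.6%), and 0 without the batch term (1.28%), with limma on log2(FPKM + 1) (2.51%) and in batch 1 (0.96%) or 2 (0.0632%) alone, while the count lower went from 0 to 2 with the 2 groups alone. In old HFD over old ND (3.01%) 0 became 7 with DESeq2 (8.43%), 8 without the filter (3.43%) and 3 without the 4 leukocyte-rich mice (2.95%), a setting added after seeing the data. In old ND over young ND (8.5%) 2 became 1 with limma on log2(FPKM + 1) (2.5%), and 0 in either batch alone (0.687% and 0.014%) or without the leukocyte-rich mice (0.692%), and the count lower went from 0 to 1 with the replicate block (9.94%) and to 2 with the 2 groups alone (10.8%). For age on HFD (2.24%) 4 became 10 with DESeq2 (5.53%), 7 without the filter (3.82%), 1 with the replicate block (0.964%), the 2 groups alone (0.386%), either limma fit (2.37% and 2.55%) or without the leukocyte-rich mice (0.692%), and 0 in either batch alone (0.0665% and 0%). For age and diet together (30.2%) 12 became 7 without the batch term (22.4%) or with the 2 groups alone (17.4%), 3 with either limma fit (24.9% and 24.8%; 9 of the 12 were tested there, and Psmd9, Psmg4 and Psme2b were not), 2 in batch 1 (6.79%) and 3 in batch 2 (4.33%), and the 3 lower became 1 with the 2 groups alone and 0 in either batch. Batches alone hold at most 3 or 4 mice per group.

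Replicate numbers belong to different mice, and same-numbered mice deviated together with a mean correlation of 0.182 (-0.32 to 0.551 over 36 pairs), or -0.0505 after batch means were removed, so the numbers were not taken as pairs. With the replicate block Psmb10 had 1.01, Psme2 0.79 and Psme1 0.58 in old HFD over young HFD and were not called.

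Leaving out 1 mouse in turn gave 0 to 1 higher and 0 to 1 lower for diet in young mice, 0 to 6 and 0 to 1 for diet in old mice, 0 to 1 lower for age on ND, 0 to 9 and 0 to 2 for age on HFD, and 6 to 16 and 2 to 5 for age and diet together. The shares of all genes called in these fits were 0.504% to 3.68% higher and 0.463% to 3.55% lower for diet in young mice, 0.231% to 3.35% and 0.376% to 2.78% for diet in old mice, 3.81% to 9.09% and 0.451% to 2.45% for age on ND, 0.253% to 3.91% and 0.0362% to 2.23% for age on HFD, and 13.3% to 21.1% and 9.04% to 13.2% for age and diet together.

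By exon length in place of FPKM, shares by group (ND then HFD, young before old) were 5.86%, 8.98%, 12.7% and 16.1% for Psmb8, 30.5%, 33.5%, 44.7% and 49.9% for Psmb10, 81.0%, 81.3%, 86.3% and 88.9% for Psme1 plus Psme2, and 3.89%, 8.46%, 8.36% and 10.8% for Psmb9. By FPKM the Psmb9 shares of young HFD and old ND were in the other order, at 6.24% and 6.46%.

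Small log2 fold changes that passed no test turned sign. In batch 1 alone Psme2 had 0.0509 for diet in young mice and Psmb7 0.0827 for age and diet together. In batch 2 alone Psmb10 had -0.194 for diet in young mice, Psmb7 -0.0822 and Psme1 -0.0531 for diet in old mice, Psmb5 -0.0204 and Psmb7 -0.235 for age on HFD, Psmb5 -0.123 for age and diet together and Psme3 -0.0419 for the interaction. With limma Psmb10 had -0.103 (pseudocount 1) and -0.114 (0.1) for diet in young mice, Psmb7 -0.0212 (0.1) for age on HFD, and for age and diet together Psmb5 had -0.132 and -0.14 and Psmb6 -0.122 and -0.125. Psmb7 on HFD had -0.025 without the filter and -0.0144 with the replicate block. Without the leukocyte-rich mice Psme3 had 0.0239 for diet in old mice and Psmb7 0.0947 for age and diet together. Over fits without 1 mouse, Psmb10 ranged from -0.0392 to 0.118 for diet in young mice. For diet in old mice Psmb7 ranged from -0.02 to 0.299, Psme1 from -0.058 to 0.263 and Psme3 from -0.217 to 0.0256. For age on HFD Psmb5 ranged from -0.021 to 0.277 and Psmb7 from -0.151 to 0.149. For age and diet together Psmb5 ranged from -0.163 to 0.16, Psmb6 from -0.00926 to 0.337 and Psmb7 from -0.321 to 0.0117. For the interaction Psme3 ranged from -0.0673 to 0.177 and Psmb8 from -0.119 to 0.29.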
